A study of Mus musculus with 18 samples.

Results

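Peritoneal macrophages of mice that bore a tumor and received an isotype control were sorted into Tim-4low and Tim-4high cells, and the 2 populations were compared across all genes by RNA sequencing. The comparison rests on 6 of the 18 libraries of the series, the 3 Tim-4low and 3 Tim-4high columns that name the isotype in the table of gene counts. These mice carried MC38-LG inside the peritoneal cavity, MC38 being a mouse colon carcinoma line, and cells were collected on day 10 after tumor challenge. The other 12 libraries, 3 for each population and condition, came from untreated mice without a tumor collected on the same day and from tumor-bearing mice given anti-Tim-4 on day 7. Their levels enter below only where the population difference itself was compared between conditions. The estimate of the spread behind the standard errors and p-values was shared over all 18 libraries. The labels give no strain, genotype, age or sex for any group, no day for the isotype antibody, no sorting gate beyond Tim-4 and no number of mice behind a library. Nothing says that the 3 libraries of a population came from separate mice, so p-values cover no more than the spread among libraries of the same group, which may be technical.

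Tim-4, encoded by Timd4, is a receptor for phosphatidylserine, the lipid that dying cells expose, and it marks macrophages that have lived in a body cavity for a long time. The resident cells of the peritoneum are large macrophages kept by the transcription factor Gata6 and retinoic acid, and they carry much F4/80 (Adgre1). A second, smaller population arises from blood monocytes, which enter tissues through the chemokine receptor Ccr2 and gain resident features with time. By its title the series concerns resident Tim-4+ cavity macrophages and CD8+ T cell immunity to tumors.

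The 6 isotype libraries held between 28331569 and 31632486 estimated gene counts, and the 18 of the series between 24530070 and 34110392. Levels are given as CPM, counts scaled to TMM-adjusted library sizes, in the order of libraries 1, 2 and 3. Log2 fold changes are Tim-4low over Tim-4high with their standard error, and adjusted p-values come from edgeR's quasi-likelihood test with Benjamini-Hochberg adjustment over 16609 genes, called under 0.05. The macrophage label held in both populations, with 15 macrophage identity genes summing to 21000, 20100 and 19800 CPM in Tim-4low cells, against 22100, 21300 and 22000 CPM in Tim-4high cells. The sums hide differences in single genes. In Tim-4low cells 3 of the 15 were called higher and 3 lower (20.0% each), against 11.3% and 12.9% of all genes. Library 3 of both populations stood apart in markers of other cells. The 15 T cell markers summed to 40.0, 31 and 171 CPM in Tim-4low cells, against 30.6, 23 and 157 CPM in Tim-4high cells, and none was at 0 in all 6 libraries. Neutrophil markers summed to 92.2, 120.0 and 399 CPM in Tim-4low cells, against 125, 105 and 390.0 CPM in Tim-4high cells. NK cell markers were likewise highest in library 3, at 30.3, 23.9 and 113 CPM and 16.7, 11.8 and 104 CPM, and so were B cell markers, at 29.2, 26.9 and 105 CPM and 37.6, 28.7 and 96.4 CPM. These 4 sums differed more between library 3 and the others than between populations, and their part in the results was not tested.

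Timd4 (ENSMUSG00000055546, chromosome 11, 46810800 to 46844332, mm10), the gene of the sorted protein, stood at 14.5, 11 and 75.4 CPM in the Tim-4low libraries and at 319.5, 294 and 280.4 CPM in the Tim-4high libraries. The groups did not overlap, which checks the labels and is no finding, and Tim-4low library 3 held the most Timd4 of its group (log2 fold change -3.15 ± 0.85, adjusted p = 0.0134). The call was lost without Tim-4low library 1 (adjusted p = 0.0604) or Tim-4low library 2 (adjusted p = 0.063), and without Tim-4low library 3 the log2 fold change was -4.55. Several resident genes were also highest in Tim-4low library 3 among the Tim-4low libraries, so their fold changes depend on it in the way the values below show.

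In isotype-treated tumor mice 4011 of 16609 genes differed between the populations, 1871 of them (11.3% of those tested) higher and 2140 (12.9%) lower in Tim-4low cells. The change was over 2-fold for 430 higher and 748 lower genes and over 4-fold for 101 and 188. Over all genes the median log2 fold change was 0.01. All Tim-4low libraries lay above all Tim-4high libraries in 3542 of the 16609 genes and below them in 3645, so a lack of overlap was common. In bulk samples, fewer cells of a type and less RNA per cell cannot be told apart. The count was 2833 without libraries 3 of both populations and 2625 without Tim-4low library 2.

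**Figure D1:**
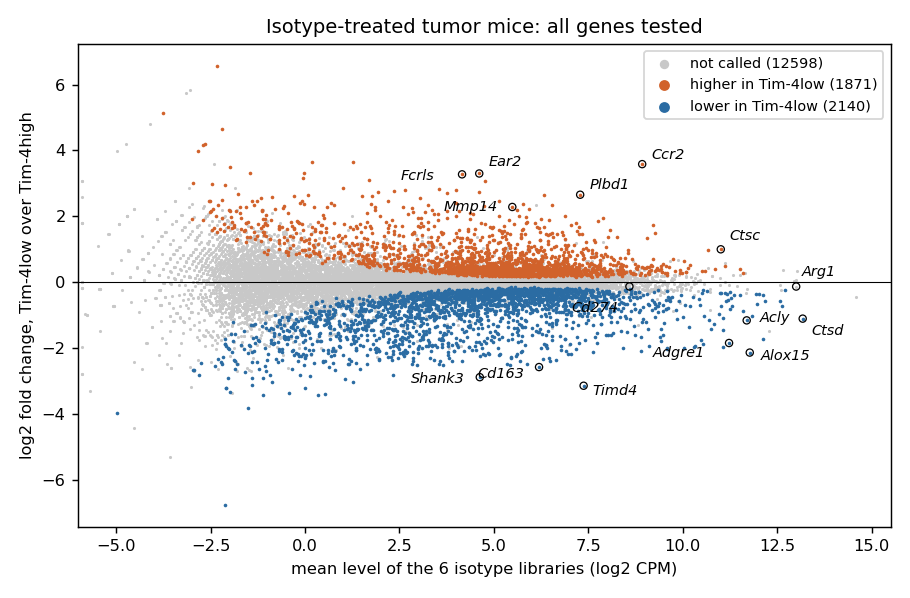
Each point is 1 of 16609 genes, with the mean level of the 6 isotype libraries in log2 CPM on the horizontal axis and the log2 fold change of Tim-4low over Tim-4high on the vertical axis. The 1871 genes called higher are orange, the 2140 called lower are blue, and the others are grey, with genes below the left edge drawn at it. Ccr2 lies at 3.58 and Timd4 at -3.15, while Arg1 and Cd274 lie near 0.

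The 15 largest rises and the 15 largest falls were taken among called genes without overlap that averaged 10 CPM or more in the higher population. Predicted models, pseudogenes and antigen receptor segments were left out. A gene below 10 CPM, such as Stxbp6 (log2 fold change 2.62 ± 0.26), was not listed whatever its change. Ccr2 (ENSMUSG00000049103, chromosome 9, 124101950 to 124113557) led the 15 largest rises in Tim-4low cells, at 959.7, 918 and 811 CPM in Tim-4low against 45, 55.8 and 123 CPM in Tim-4high cells, a 12-fold difference (log2 fold change 3.58 ± 0.38, adjusted p = 4.59e-05). Without both libraries 3 its log2 fold change was 4.21. Ear2 (ENSMUSG00000072596, chromosome 14, 44102654 to 44103534), an eosinophil-associated ribonuclease gene with near-identical copies, stood at 62.1, 36.8 and 34.2 CPM against 3.8, 5.14 and 4.54 CPM (log2 fold change 3.30 ± 0.48, adjusted p = 0.000251). The Fc receptor-like gene Fcrls (ENSMUSG00000015852, chromosome 3, 87250758 to 87263738) was at 41.8, 28.9 and 26.2 CPM against 2.99, 3.62 and 3.39 CPM (log2 fold change 3.27 ± 0.45, adjusted p = 0.000176). The populations did not overlap in these 3 genes, which the choice of the 15 required. The next largest differences were those of Gpr141 (3.07 ± 0.56), B3gnt7 (2.83 ± 0.42), Gfra2 (2.80 ± 0.36), Spon1 (2.79 ± 0.36) and Ms4a4c (2.75 ± 0.54). Htr7, a serotonin receptor gene (2.70 ± 0.47), Plbd1 (2.65 ± 0.32), Ltb4r1 (2.64 ± 0.40), Batf3 (2.54 ± 0.27) and the junction adhesion gene F11r (2.46 ± 0.36) followed. Spon1, Ms4a4c and Htr7 were higher in Tim-4high library 3 than in the other Tim-4high libraries, and without it their log2 fold changes were 3.63, 3.74 and 3.55. The 15 largest rises closed with Cx3cr1 (2.40 ± 0.66) and Ly6c2 (2.37 ± 0.69), both monocyte genes. Cx3cr1 lost its call without Tim-4high library 1 (adjusted p = 0.0621) or 2 (0.0562) and without both libraries 3 (0.0565). Ly6c2 lost its call without Tim-4high library 1 (adjusted p = 0.0935) or 2 (0.0811) and without Tim-4low library 2 (0.0564), and its log2 fold change was 2.99 without Tim-4high library 3. In the fit of the 6 isotype libraries alone the adjusted p was 0.000383 for Cx3cr1 and 0.00349 for Ly6c2.

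Among genes lower in Tim-4low cells chosen by the same rule, Timd4 itself apart, the largest change was in Shank3, a scaffold gene best known from synapses, at 4.06, 3.53 and 10.0 CPM against 46, 43.2 and 41.2 CPM (log2 fold change -2.89 ± 0.59, adjusted p = 0.00246). Tdo2 (ENSMUSG00000028011, chromosome 3, 81957090 to 81976202), which encodes the liver-type tryptophan dioxygenase, stood at 9.73, 7.53 and 20.9 CPM against 79.4, 67.5 and 71.7 CPM (log2 fold change -2.52 ± 0.44, adjusted p = 0.000936). The gene of collagen type XVIII, Col18a1, stood at 16.2, 13.2 and 23.9 CPM against 111, 102 and 88.3 CPM (log2 fold change -2.50 ± 0.57, adjusted p = 0.00532). The populations did not overlap in the 3 genes, which the choice required, and Tim-4low library 3 was the highest of its group in each. Bmp6, a ligand of the bone morphogenetic protein family (-2.50 ± 0.52), the ligand gene Wnt2 (-2.40 ± 0.59), the transcription factor gene Sox7 (-2.53 ± 0.64), the complement gene C2 (-2.48 ± 0.60) and the focal adhesion gene Tln2 (-2.40 ± 0.56) fell as well. So did Hhipl1 (-2.52 ± 0.48), Sel1l3 (-2.47 ± 0.48), Ccm2l (-2.40 ± 0.48), Shisa9 (-2.40 ± 0.51) and the serotonin receptor gene Htr2a (-2.39 ± 0.77). Without Tim-4low library 3 the log2 fold changes of Shank3, Bmp6, Wnt2, Sox7, C2 and Shisa9 were -3.52, -3.29, -3.35, -3.16, -3.15 and -3.04. Sox7 lost its call without Tim-4low library 2 (adjusted p = 0.051). Htr2a lost its call without any 1 of the 6 libraries, with adjusted p from 0.0553 to 0.119. In the fit of the 6 isotype libraries alone its adjusted p was 0.000726.

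Genes of large resident peritoneal macrophages were lower in Tim-4low cells almost throughout the list, with 25 of 28 tested members lower, none higher and a median log2 fold change of -1.75. Timd4 is not among the 28. The cells were sorted by Tim-4, itself a marker of resident macrophages. This list and those below were drawn up with earlier results of these data known, so their counts describe and do not test. Their counts are to be read beside the 11.3% called higher and 12.9% called lower over all genes. Alox15 (ENSMUSG00000018924, chromosome 11, 70344152 to 70352031), the lipoxygenase that makes 12- and 15-hydroxy lipids, stood at 1317, 667 and 1893 CPM in Tim-4low cells, against 6651, 4623 and 5811 CPM in Tim-4high cells (log2 fold change -2.14 ± 0.46, adjusted p = 0.00349). The lubricin gene Prg4 was at 854, 405 and 1338 CPM against 3919, 2794 and 3478 CPM (log2 fold change -1.97 ± 0.45, adjusted p = 0.00528). F5 (ENSMUSG00000026579, chromosome 1, 164151838 to 164220277), which encodes coagulation factor V, was at 436, 273 and 546 CPM against 1841, 1542 and 1659 CPM (log2 fold change -2.0 ± 0.38, adjusted p = 0.00147). The order within the Tim-4low group was library 3, then 1, then 2 in each, and the groups did not overlap. Selp, the P-selectin gene (-1.95 ± 0.38), the lectin gene Fcna (-1.60 ± 0.31), Lrg1 (-1.66 ± 0.32) and the acute phase gene Saa3 (-1.44 ± 0.34) fell too. The retinoic acid receptor gene Rarb (-1.38 ± 0.24), Cd93 (-1.09 ± 0.22), the cytosolic sensor gene Naip1 (-1.04 ± 0.17) and Bhlhe40 (-0.62 ± 0.11) fell by less. Nt5e, which encodes the ectonucleotidase CD73 that makes adenosine, was at 80.9, 67.4 and 126 CPM against 331, 309 and 348 CPM (log2 fold change -1.85 ± 0.44, adjusted p = 0.00641). Vsig4, a complement receptor gene, stood at 29.9, 23 and 83.2 CPM against 184, 211 and 223 CPM (log2 fold change -2.18 ± 0.49, adjusted p = 0.00437), and its log2 fold change was -2.96 without Tim-4low library 3. The 3 members that were not called were Hgf (1.23 ± 0.46, adjusted p = 0.067), Bhlhe41 (-1.44 ± 0.53, adjusted p = 0.0582) and Wt1 (0.40 ± 0.55, adjusted p = 0.661), and with library number as a replicate block Hgf was called higher (adjusted p = 0.00153) and Bhlhe41 lower (0.00772). Of the 25 called members, 20 were called in every omission of 1 library.

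**Figure D2:**
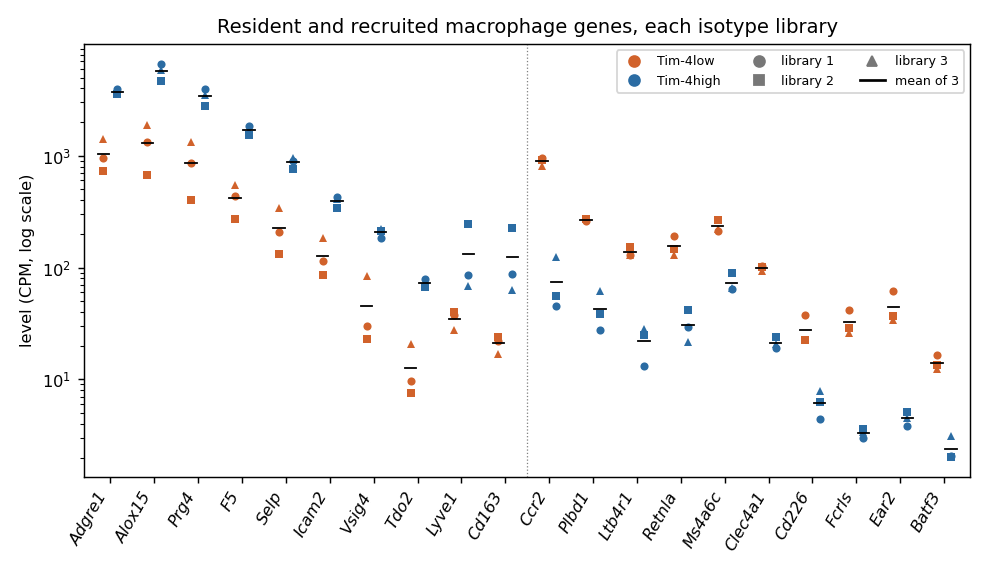
Levels of 20 genes in each of the 6 isotype libraries, in CPM on a log axis, with Tim-4low in orange, Tim-4high in blue, library numbers as symbols and the mean of 3 libraries as a bar. The 10 genes left of the dotted line are higher in Tim-4high and the 10 right of it higher in Tim-4low libraries. Each of the 20 genes separates the populations, and Lyve1 and Cd163 are highest in Tim-4high library 2.

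Genes of the perivascular type of tissue macrophage that carries Lyve1 and Folr2 were more often lower than higher in Tim-4low cells. Of 16 tested members, 9 fell and 1 rose, with a median of -1.86, and with the block 3 rose. Cd163 (ENSMUSG00000008845, chromosome 6, 124304656 to 124330527), the haemoglobin scavenger receptor gene, stood at 22.2, 23.8 and 17 CPM in Tim-4low cells, against 88.3, 226 and 62.5 CPM in Tim-4high cells, where library 2 was far above the others (log2 fold change -2.58 ± 0.55, adjusted p = 0.00329). Without that library the log2 fold change was -1.85 and the gene was still called. Lyve1, a hyaluronan receptor gene, had the same outlying library, at 37.4, 40.2 and 27.4 CPM against 85.8, 243 and 68.1 CPM (log2 fold change -1.92 ± 0.54, adjusted p = 0.0164). Its call was lost without Tim-4high library 2 (-1.14, adjusted p = 0.125) and without Tim-4low library 3 (adjusted p = 0.0613). Cd5l, a scavenger-like secreted protein of resident macrophages, stood at 462, 295 and 772 CPM against 2112, 1864 and 2032 CPM with no such library (log2 fold change -1.97 ± 0.39, adjusted p = 0.00187). The platelet factor gene Pf4 (-1.88 ± 0.33), the growth factor gene Igf1 (-1.86 ± 0.39) and the selenium carrier gene Selenop (-0.78 ± 0.17) also fell. The member that rose was Mrc1, the mannose receptor gene, at 498, 520.3 and 297 CPM against 125, 286 and 98.9 CPM (log2 fold change 1.37 ± 0.43, adjusted p = 0.0304). The call of Mrc1 was lost without Tim-4low library 1 (adjusted p = 0.0854) or 2 (0.0999) or Tim-4high library 1 (0.127) or 3 (0.119), and without Tim-4high library 2 the log2 fold change was 1.97. Folr2 itself was at 90.7, 87.4 and 64.5 CPM against 55.5, 116 and 47.9 CPM, with overlapping groups (log2 fold change 0.14 ± 0.43, adjusted p = 0.852).

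Genes of small or recruited macrophages were higher in Tim-4low cells, with 11 of 20 tested members higher, 1 lower and a median of 1.09. Retnla, a secreted protein gene of alternatively activated macrophages, stood at 192, 147 and 129 CPM in Tim-4low cells, against 29.6, 41.4 and 21.6 CPM in Tim-4high cells (log2 fold change 2.34 ± 0.32, adjusted p = 0.000156). Cd226, an adhesion receptor gene, was at 37.9, 22.3 and 22.4 CPM against 4.45, 6.3 and 7.85 CPM (log2 fold change 2.15 ± 0.28, adjusted p = 0.000133). Outside the list, Plbd1 (ENSMUSG00000030214, chromosome 6, 136612070 to 136661928), a phospholipase-like gene of myeloid cells, was at 263, 274 and 269 CPM against 27.6, 38.2 and 62.1 CPM (log2 fold change 2.65 ± 0.32, adjusted p = 7.46e-05). All Tim-4low libraries lay above all Tim-4high libraries in the 3 genes. The ion channel genes Tmem176a (1.07 ± 0.16) and Tmem176b (1.12 ± 0.15) rose by about the same amount. Klf2 was the member that fell (log2 fold change -0.48 ± 0.10, adjusted p = 0.00372). Among members that were not called, the integrin gene Itgax stood at 13.4, 12.2 and 24.2 CPM against 2.99, 4.35 and 15.3 CPM (adjusted p = 0.154), with high values in both libraries 3, and was called higher with the block (adjusted p = 0.022). Mgl2, a lectin gene of small macrophages without a tumor, was at 38.5, 34.3 and 40.4 CPM against 30.0, 49.1 and 36.2 CPM (adjusted p = 0.981).

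Surface receptors of the lectin, paired receptor and Ms4a families were more often higher than lower in Tim-4low cells. Among 52 lectin and paired receptor genes 18 rose and 6 fell (median 0.36), and among 10 Ms4a genes 5 rose and 1 fell (median 0.69). Clec4a1 (ENSMUSG00000049037, chromosome 6, 122921848 to 122934619), of the Dcir family of C-type lectins, stood at 103, 101 and 93.7 CPM in Tim-4low cells, against 19.2, 24 and 20.6 CPM in Tim-4high cells (log2 fold change 2.22 ± 0.24, adjusted p = 4.59e-05). Its neighbours in the family Clec4a2 (1.76 ± 0.24) and Clec4a3 (0.99 ± 0.11) rose with it. Sirpb1c was at 127, 152 and 129 CPM against 48.3, 59.1 and 51.7 CPM (log2 fold change 1.36 ± 0.18, adjusted p = 0.000134), and its close copies Sirpb1a (2.18 ± 0.28) and Sirpb1b (1.29 ± 0.22) were called higher too. Cd300c2 (1.82 ± 0.21), Slamf9 (1.60 ± 0.31), Clec12a (1.49 ± 0.34), Pira2 (1.0 ± 0.14), Treml2 (0.89 ± 0.18) and Pirb (0.54 ± 0.13) rose as well, each in every omission of 1 library. In the Ms4a family, Ms4a6c stood at 214, 267 and 220.0 CPM against 64.7, 88.8 and 65 CPM (log2 fold change 1.68 ± 0.29, adjusted p = 0.000733), beside Ms4a4a (2.02 ± 0.32) and Ms4a6b (2.01 ± 0.45). Ms4a8a went the other way, at 269, 239 and 274 CPM against 416, 372 and 398 CPM (log2 fold change -0.60 ± 0.13, adjusted p = 0.00391). Falls among paired receptors included the inhibitory sialic acid receptor gene Cd33 (-1.05 ± 0.19), Cd244a (-0.97 ± 0.17) and Clec4e, the mycobacterial glycolipid receptor gene Mincle (-0.72 ± 0.13). Without Tim-4low library 1 or 2, 3 of the lectin and paired receptor genes were called lower in place of 6, and without Tim-4high library 3 a second Ms4a gene was called lower. Counts of the Clec4a, Sirpb1, Pira and Ms4a4 genes are uncertain because near-identical copies can share reads.

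**Figure D3:**
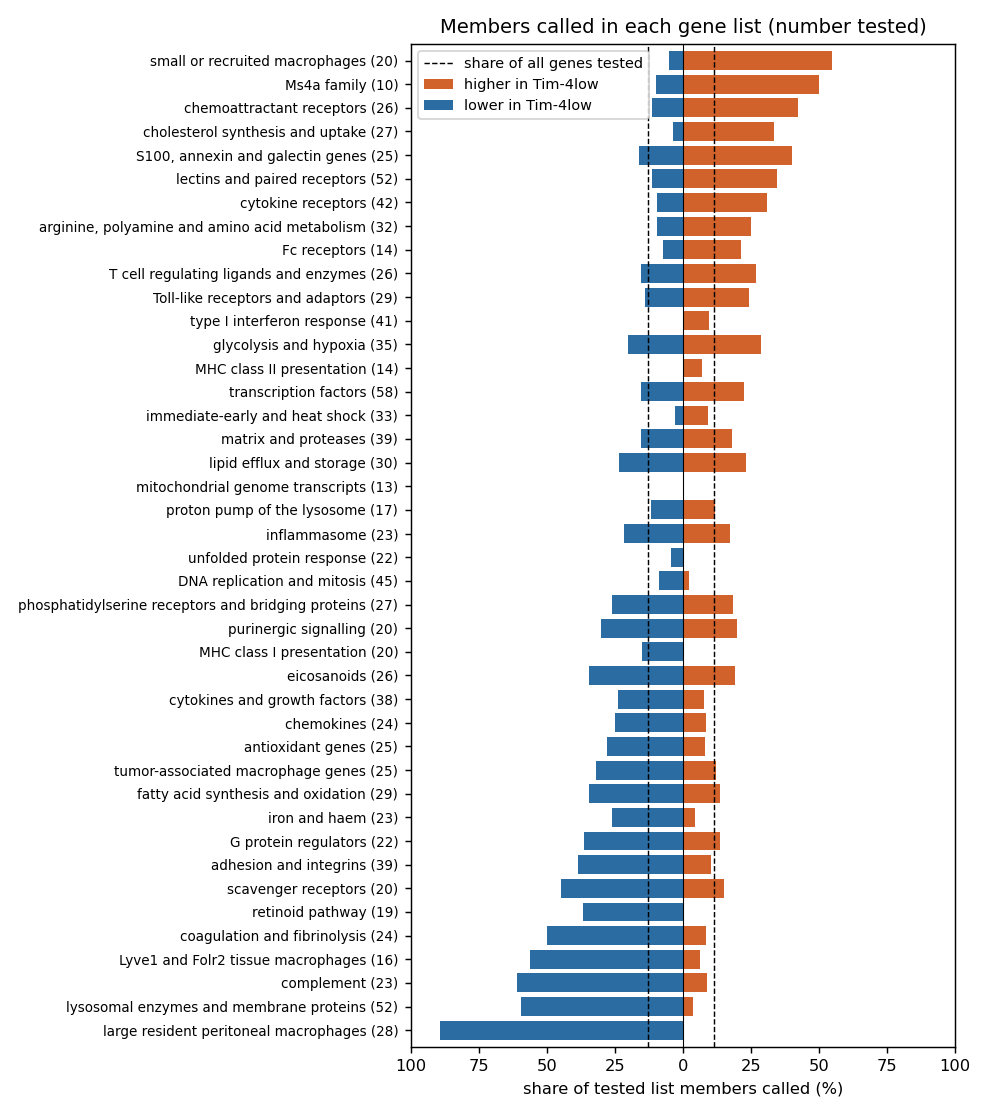
Share of tested members called higher (orange, right) or lower (blue, left) in Tim-4low cells for each list of macrophage genes, with the number tested in brackets and dashed lines at the shares over all genes, 11.3% and 12.9%. The resident list has 25 of 28 members lower, and the small or recruited list 11 of 20 higher.

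Receptors for chemoattractants were higher in Tim-4low cells more often than lower, with 11 of 26 higher, 3 lower and a median of 0.35. Ltb4r1, the receptor gene for leukotriene B4, stood at 128, 154 and 129 CPM in Tim-4low cells, against 13.1, 25.1 and 27.9 CPM in Tim-4high cells (log2 fold change 2.64 ± 0.40, adjusted p = 0.000325). Lpar6, a lysophosphatidic acid receptor gene, was at 31.1, 28.9 and 26.5 CPM against 13.7, 11.3 and 11.9 CPM (log2 fold change 1.23 ± 0.13, adjusted p = 4.59e-05). The spread within each population was small beside the difference in these genes, and no library crossed. P2ry6 (1.45 ± 0.29), the sphingosine-1-phosphate receptor gene S1pr2 (1.06 ± 0.20), the platelet activating factor receptor gene Ptafr (1.01 ± 0.18) and the anaphylatoxin receptor gene C3ar1 (0.72 ± 0.14) rose as well. Ackr3, which scavenges Cxcl12, fell, at 60.1, 46.5 and 93.9 CPM against 239.8, 211 and 265 CPM (log2 fold change -1.83 ± 0.41, adjusted p = 0.00415), as did the chemerin receptor gene Cmklr1 (log2 fold change -0.67 ± 0.09, adjusted p = 0.000169). Among 24 chemokine genes 2 rose and 6 fell. The membrane-bound chemokine gene Cxcl16 rose (log2 fold change 0.56 ± 0.13, adjusted p = 0.00694). Cxcl13, a B cell attractant made by resident cavity macrophages, was at 17.2, 6.99 and 34.1 CPM against 106, 68.2 and 82.2 CPM (log2 fold change -2.14 ± 0.44, adjusted p = 0.00279), and without Tim-4low library 3 its log2 fold change was -2.82. Ccl8 stood at 8.91, 10.5 and 6.62 CPM against 33, 70.7 and 18.8 CPM, with Tim-4high library 2 the highest (log2 fold change -2.23 ± 0.42, adjusted p = 0.00141), and without that library its log2 fold change was -1.58. Without Tim-4low library 1 or 2 only 3 chemokine genes were called lower, without Tim-4high library 1 only 1 was called higher, and with the block 8 were called higher and 8 lower.

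Of 58 tested transcription factor genes 13 were higher and 9 lower, with a median of 0.08. The share called lower was near the 12.9% over all genes, while the share called higher was above the 11.3% over all genes. Maf (ENSMUSG00000055435, chromosome 8, 115682942 to 115707794), a regulator of macrophage identity and self-renewal, stood at 285, 295 and 276 CPM in Tim-4low cells, against 102, 144 and 104 CPM in Tim-4high cells (log2 fold change 1.29 ± 0.22, adjusted p = 0.000759). The hypoxia factor gene Hif1a (ENSMUSG00000021109, chromosome 12, 73901375 to 73947530) was at 533, 516 and 448 CPM against 240.3, 271 and 257 CPM (log2 fold change 0.96 ± 0.10, adjusted p = 4.59e-05). Epas1, which encodes its relative HIF-2 alpha, went the other way, at 22.3, 16.6 and 48.8 CPM against 153, 135 and 147 CPM (log2 fold change -2.31 ± 0.43, adjusted p = 0.0014). The 2 hypoxia factor genes therefore differed between the populations in opposite directions, and without Tim-4low library 3 the log2 fold change of Epas1 was -2.90. Gata6 was at 42.6, 26.1 and 69.8 CPM against 212, 169 and 207 CPM (log2 fold change -2.08 ± 0.46, adjusted p = 0.00434). Batf3 (ENSMUSG00000026630, chromosome 1, 191097847 to 191108945), known from cross-presenting dendritic cells, was at 16.4, 13.4 and 12.3 CPM against 2.07, 2.03 and 3.12 CPM (log2 fold change 2.54 ± 0.27, adjusted p = 4.59e-05), while Flt3 of the same cells was between 0.959 and 7.01 CPM in the 6 libraries. Etv5 (1.14 ± 0.19), the interferon regulatory factor genes Irf8 (1.07 ± 0.24) and Irf5 (0.83 ± 0.11), the aryl hydrocarbon receptor gene Ahr (1.06 ± 0.20) and Tfeb (0.55 ± 0.09), a driver of lysosome genes, rose. Smad3, a transducer of TGF-beta signals, fell (log2 fold change -0.86 ± 0.12, adjusted p = 0.000179), and so did Klf9 (log2 fold change -0.63 ± 0.10, adjusted p = 0.000447). With the block 16 of the 58 were called lower.

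Genes of lysosomal enzymes and membrane proteins were lower in Tim-4low cells, although Tfeb was higher. Of 52 tested members 31 fell and 2 rose, with a median of -0.36, and 28 of the 33 calls held in every omission of 1 library. Lysosomal genes are known to share a short promoter element, the E-box CACGTG, which is read the same on both strands and is bound by Tfeb and its relatives. In RefSeq promoter sequences (GRCm38.p6, the assembly of mm10), taken as the 250 bases before each gene's RefSeq start, CACGTG was found for 14 of the 42 members with a sequence (33.3%) and for 10 of the 26 matched members that fell (38.5%). The share was 9.69% among 10678 tested genes with a sequence, 6.86% among 27025 genes and 6.02% among 32851 promoters. A match is a description of letters, not evidence of binding. The promoters of 4 members that fell are shown because they hold the element beside some of the largest falls of the list, with CACGTG in capitals.
Ctsd (chr7:142387828-142388077, minus strand): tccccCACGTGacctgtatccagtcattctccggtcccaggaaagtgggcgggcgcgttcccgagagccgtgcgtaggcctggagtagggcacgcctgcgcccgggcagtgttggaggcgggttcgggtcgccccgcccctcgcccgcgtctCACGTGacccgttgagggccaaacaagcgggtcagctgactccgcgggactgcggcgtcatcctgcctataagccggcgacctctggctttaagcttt
Glb1 (chr9:114400828-114401077, plus strand): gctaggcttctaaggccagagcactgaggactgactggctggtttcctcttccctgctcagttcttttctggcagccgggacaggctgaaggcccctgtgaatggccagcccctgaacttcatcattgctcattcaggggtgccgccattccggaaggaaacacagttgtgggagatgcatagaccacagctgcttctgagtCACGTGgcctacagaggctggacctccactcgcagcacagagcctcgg
Naglu (chr11:101069844-101070093, plus strand): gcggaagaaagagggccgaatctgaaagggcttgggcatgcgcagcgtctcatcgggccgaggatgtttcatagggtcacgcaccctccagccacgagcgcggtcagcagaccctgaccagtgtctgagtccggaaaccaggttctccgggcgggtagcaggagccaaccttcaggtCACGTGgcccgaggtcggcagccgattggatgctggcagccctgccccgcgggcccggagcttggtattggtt
Gaa (chr11:119267713-119267962, plus strand): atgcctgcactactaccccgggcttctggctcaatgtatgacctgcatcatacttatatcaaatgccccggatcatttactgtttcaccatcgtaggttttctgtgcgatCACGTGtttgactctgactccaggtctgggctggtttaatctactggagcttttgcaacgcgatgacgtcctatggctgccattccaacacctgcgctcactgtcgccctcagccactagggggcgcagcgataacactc
Ctsd holds the element at 2 places and the other 3 genes at 1. The starts used here are those of RefSeq, while the gene positions in the text come from GENCODE, and the 2 differ. By the GENCODE positions 211 bases of the Ctsd stretch, 82 of the Naglu stretch, 76 of the Gaa stretch and 2 of the Glb1 stretch lie inside the gene, among them 1 of the 2 matches of Ctsd and the match of Naglu.

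Ctsd (ENSMUSG00000007891, chromosome 7, 142375911 to 142388038), the aspartic protease cathepsin D, stood at 5530, 5186 and 6821 CPM in Tim-4low cells, against 12160, 12280 and 13400 CPM in Tim-4high cells (log2 fold change -1.11 ± 0.13, adjusted p = 5.99e-05). Glb1 (ENSMUSG00000045594, chromosome 9, 114401076 to 114474898), lysosomal beta-galactosidase, was at 129, 109.5 and 192 CPM against 436, 375 and 459 CPM (log2 fold change -1.56 ± 0.27, adjusted p = 0.000903). Naglu (ENSMUSG00000001751, chromosome 11, 101070012 to 101077672), which degrades heparan sulfate, was at 110.5, 111 and 125 CPM against 238, 215 and 252 CPM (log2 fold change -1.02 ± 0.11, adjusted p = 4.59e-05). None of the 3 genes had a Tim-4low library as high as any Tim-4high library. Gaa (ENSMUSG00000025579, chromosome 11, 119267887 to 119285454), the enzyme that breaks down glycogen in lysosomes, was at 132, 114 and 151 CPM against 338, 301 and 324 CPM (log2 fold change -1.28 ± 0.14, adjusted p = 5.84e-05). Sort1 (ENSMUSG00000068747, chromosome 3, 108284082 to 108361511), the sorting receptor sortilin that brings enzymes to the lysosome, fell about as far, at 182, 146 and 189.6 CPM against 519, 438 and 485 CPM (log2 fold change -1.48 ± 0.18, adjusted p = 8.7e-05). The tetraspanin gene Cd63 (-1.37 ± 0.28), the sulfatase gene Arsa (-1.12 ± 0.15), the membrane protein gene Scarb2 (-1.11 ± 0.16), the sphingomyelinase gene Smpd1 (-0.89 ± 0.11), Cd68 (-0.82 ± 0.10) and progranulin, Grn (-0.81 ± 0.08), fell as well. Falls under 1.5-fold were found for Hexa (-0.48 ± 0.10), Neu1 (-0.46 ± 0.09), Ctsa (-0.55 ± 0.08) and Lamp1 (-0.25 ± 0.06), whose promoter holds CACGTG at 4 places. Ctsc, the dipeptidase that activates serine proteases of immune granules, rose, at 2738, 3048 and 2423 CPM against 1256, 1639 and 1218 CPM (log2 fold change 1.0 ± 0.18, adjusted p = 0.000923). Ctss was the other call in that direction (log2 fold change 0.28 ± 0.09, adjusted p = 0.0414), and it was lost without any 1 of the 6 libraries, with adjusted p from 0.0741 to 0.188. Among 17 genes of the proton pump that acidifies the lysosome 2 rose and 2 fell, with a median of -0.14. These shares, 11.8% each, were near the 11.3% and 12.9% over all genes. No pump gene was called higher without any 1 library other than Tim-4low library 3, and 1 was called lower without Tim-4low library 1 or 2 or Tim-4high library 3.

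**Figure D4:**
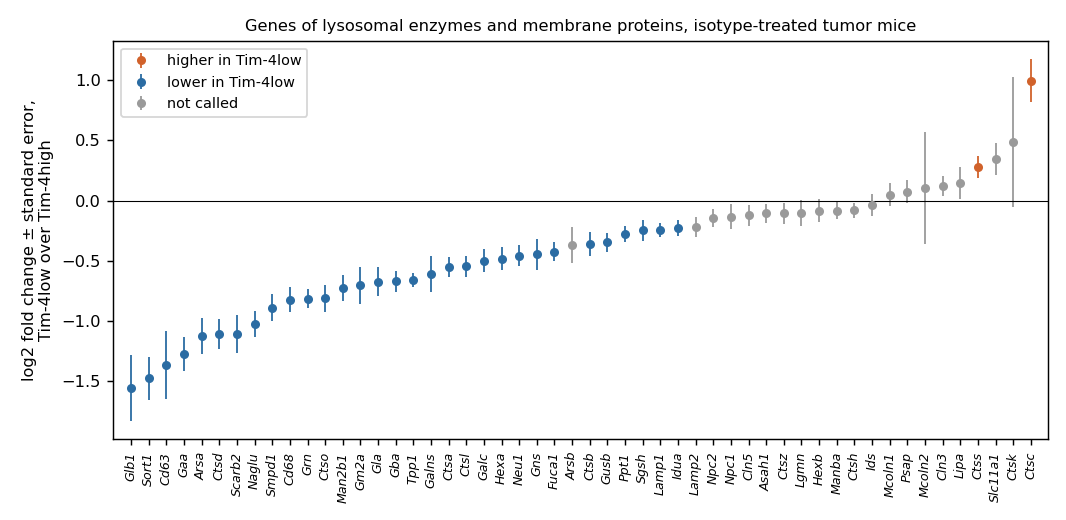
Log2 fold change of Tim-4low over Tim-4high (point) and its standard error (bar) for the 52 tested genes of lysosomal enzymes and membrane proteins, ordered by size. The 31 genes called lower run from Glb1 at -1.56 to Idua at -0.23, and Ctsc at 1.0 and Ctss at 0.28 are the genes called higher.

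Complement genes were lower in Tim-4low cells, with 14 of 23 tested members lower, 2 higher and a median of -0.73. C4b (ENSMUSG00000073418, chromosome 17, 34728380 to 34743882), the central component of the classical and lectin pathways, stood at 2039, 1460 and 2687 CPM in Tim-4low cells, against 7379, 5659 and 7341 CPM in Tim-4high cells (log2 fold change -1.72 ± 0.31, adjusted p = 0.000972). Properdin, Cfp, which stabilizes the alternative pathway's convertase, was at 995, 855 and 1159 CPM against 2110, 1811 and 2160 CPM (log2 fold change -1.01 ± 0.17, adjusted p = 0.000543). Itgam, a chain of complement receptor 3 also known as CD11b, was at 4821, 4693 and 4732 CPM against 8028, 7768 and 7769 CPM (log2 fold change -0.73 ± 0.11, adjusted p = 0.000289). The groups did not overlap in these genes. Falls were also found for the recognition genes C1qa (-0.54 ± 0.09) and C1qc (-0.72 ± 0.10) and the late component gene C6 (-2.02 ± 0.37). C3 was at 1194, 853 and 1369 CPM against 3648, 2615 and 3128 CPM (log2 fold change -1.46 ± 0.50, adjusted p = 0.0449) and lost its call without any 1 of the 6 libraries, with adjusted p from 0.0635 to 0.157. The rises were the receptor genes C3ar1 and C5ar1, and without Tim-4high library 1 (adjusted p = 0.0626), without Tim-4high library 3 (0.0527) or without Tim-4low library 2 (0.0507) C5ar1 (0.51 ± 0.14) was not called. Coagulation and fibrinolysis genes had 12 of 24 members lower and 2 higher. Beside F5, the factor X gene F10 (-0.70 ± 0.13), the protein S gene Pros1 (-0.89 ± 0.14), Serpinb6a (-1.38 ± 0.18) and thrombospondin 1, Thbs1 (-1.02 ± 0.26), fell. No coagulation gene was called higher without Tim-4high library 1 or without both libraries 3, and 1 was without Tim-4low library 2.

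Several enzymes that make lipid mediators were lower in Tim-4low cells, while receptors for them went both ways. Of 26 eicosanoid genes 9 fell and 5 rose, with a median of -0.22. Next to Alox15, the leukotriene enzyme gene Alox5 stood at 192, 141 and 230.0 CPM in Tim-4low cells, against 561, 489 and 576 CPM in Tim-4high cells (log2 fold change -1.53 ± 0.23, adjusted p = 0.000313). Prostacyclin synthase, Ptgis, was at 128, 73.7 and 213 CPM against 594, 466 and 593 CPM (log2 fold change -2.0 ± 0.47, adjusted p = 0.00594). Cyclooxygenase 1, Ptgs1, was at 460.4, 457 and 427 CPM against 799.6, 762 and 759 CPM (log2 fold change -0.79 ± 0.09, adjusted p = 7.33e-05), and prostaglandin E synthase, Ptges, fell too (-1.39 ± 0.22). Rises were found for Ltb4r1, above, for the prostaglandin E receptor gene Ptger2, at 23.1, 24.3 and 17.6 CPM against 6.1, 10.9 and 9.55 CPM (log2 fold change 1.29 ± 0.24, adjusted p = 0.00135), and for the cysteinyl leukotriene receptor gene Cysltr1 (log2 fold change 0.78 ± 0.14, adjusted p = 0.00104). Ptges3 (0.47 ± 0.09) and the thromboxane synthase gene Tbxas1 (0.37 ± 0.11) rose too, with adjusted p over the omissions of 1 library from 0.00158 to 0.0123 and from 0.0118 to 0.0938. The receptor genes Ptger3 (log2 fold change -1.56 ± 0.45, adjusted p = 0.0193) and Ptgir (log2 fold change -0.42 ± 0.12, adjusted p = 0.0214) were called lower, with adjusted p over the omissions of 1 library from 0.00654 to 0.0893 and from 0.0347 to 0.0834.

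The first enzymes of fatty acid synthesis were lower in Tim-4low cells, and several of cholesterol synthesis were higher. Acly (ENSMUSG00000020917, chromosome 11, 100476353 to 100528000), which makes cytosolic acetyl-CoA, stood at 1997, 1923 and 2199 CPM in Tim-4low cells, against 4776, 4240 and 4681 CPM in Tim-4high cells (log2 fold change -1.16 ± 0.16, adjusted p = 0.000189). Acaca, the next enzyme towards fatty acids, was at 83.5, 76.2 and 86.7 CPM against 218, 182 and 165 CPM (log2 fold change -1.20 ± 0.15, adjusted p = 9.79e-05). Malic enzyme, Me1, which supplies NADPH, was at 38.1, 24 and 65.4 CPM against 187, 164 and 184 CPM (log2 fold change -2.07 ± 0.51, adjusted p = 0.00792). Altogether 10 of 29 genes of fatty acid synthesis and oxidation fell and 4 rose, the desaturase gene Fads1 among them (1.05 ± 0.21), and only 1 rose without Tim-4high library 1, Tim-4low library 2 or both libraries 3, and 2 without Tim-4low library 1. Of 27 genes of cholesterol synthesis and uptake, 9 rose and 1 fell, with a median of 0.23. Sqle, the enzyme gene of squalene epoxidation, was at 14.1, 18.5 and 16.9 CPM against 4.57, 7.07 and 10.6 CPM (log2 fold change 1.16 ± 0.26, adjusted p = 0.00493), beside Hmgcs1 (0.62 ± 0.14) and Pmvk (0.88 ± 0.16). The number that rose was 5 without Tim-4high library 1 or 2 or without Tim-4low library 2, and 14 with the block. Lipid handling genes split evenly, with 7 of 30 higher and 7 lower. The transfer protein gene Pltp was at 494, 396 and 319 CPM against 114, 174 and 113 CPM (log2 fold change 1.59 ± 0.26, adjusted p = 0.000481). Lipoprotein lipase, Lpl, was at 198, 155 and 148 CPM against 56.6, 69.9 and 58.7 CPM (log2 fold change 1.44 ± 0.18, adjusted p = 9.79e-05), and Apoc2 rose as well (0.93 ± 0.23). Without Tim-4high library 1 the list had 4 rises. Gpnmb, a glycoprotein gene of lipid-laden macrophages, went the other way, at 25.1, 22.9 and 42.8 CPM against 128, 125 and 114 CPM (log2 fold change -2.01 ± 0.47, adjusted p = 0.0062), and so did the fatty acid binding protein genes Fabp5 (-1.16 ± 0.22) and Fabp7 (-1.15 ± 0.18) and the droplet gene Hilpda (-0.86 ± 0.17).

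Besides Timd4, genes for binding phosphatidylserine moved in both directions. Of 27 tested members 7 fell (25.9%) and 5 rose (18.5%), against 12.9% and 11.3% of all genes. Anxa5 (ENSMUSG00000027712, chromosome 3, 36448923 to 36475894), a protein that coats exposed phosphatidylserine, stood at 198, 220.4 and 185 CPM in Tim-4low cells, against 46.2, 81.1 and 54.5 CPM in Tim-4high cells (log2 fold change 1.73 ± 0.28, adjusted p = 0.000549). Havcr2, which encodes Tim-3, a relative of Tim-4, was at 12.1, 17.6 and 18.1 CPM against 3.95, 8.01 and 7.47 CPM (log2 fold change 1.29 ± 0.32, adjusted p = 0.00869). Mfge8, a bridge between phosphatidylserine and integrins, was at 12.1, 10.6 and 23.4 CPM against 47.7, 42.2 and 57.3 CPM (log2 fold change -1.68 ± 0.41, adjusted p = 0.00815). Havcr2 was higher in every Tim-4low library than in any Tim-4high library. Trem2 rose (log2 fold change 1.09 ± 0.23, adjusted p = 0.00357), and Anxa1 (-0.63 ± 0.12), Cd300ld (-0.58 ± 0.09) and the engulfment gene Elmo1 (-0.36 ± 0.05) fell. The receptor tyrosine kinase gene Axl was not called (log2 fold change 0.32 ± 0.14, adjusted p = 0.117), though it was in the fit of the 6 isotype libraries alone (adjusted p = 0.0312). Its relative Mertk was not called either (log2 fold change -0.32 ± 0.15, adjusted p = 0.14), and with the block it was called lower (adjusted p = 0.00315). Without Tim-4high library 1, 3 members were called higher, and with the block 8. Scavenger receptors fell more often than they rose, with 9 of 20 lower and 3 higher, and the collectin gene Colec12 (-2.16 ± 0.37), Scarf2 (-0.94 ± 0.18) and the oxidized lipoprotein receptor gene Olr1 (-0.71 ± 0.16) were among the falls. Without both libraries 3 the log2 fold change of Colec12 was -2.77. Only 1 scavenger receptor rose without Tim-4high library 1, and 5 did with the block.

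Adhesion genes were more often lower than higher in Tim-4low cells, with 15 of 39 tested members lower and 4 higher. Itga6, a laminin-binding integrin chain, stood at 520.4, 339 and 739 CPM in Tim-4low cells, against 2197, 1853 and 2046 CPM in Tim-4high cells (log2 fold change -1.93 ± 0.37, adjusted p = 0.00146). Its partner Itgb1 was at 999, 879 and 1219 CPM against 2352, 2173 and 2301 CPM (log2 fold change -1.14 ± 0.20, adjusted p = 0.000777). Icam2 was at 114, 85.4 and 183 CPM against 426, 340.2 and 410.1 CPM (log2 fold change -1.62 ± 0.29, adjusted p = 0.00102). Itga9 (-1.56 ± 0.21), the beta-2 chain gene Itgb2 (-0.67 ± 0.13), the selectin ligand gene Selplg (-0.88 ± 0.13) and the tetraspanin genes Cd9 (-1.22 ± 0.24) and Cd37 (-0.82 ± 0.14) fell too. The collagen-binding chain gene Itga1 (log2 fold change 1.47 ± 0.36, adjusted p = 0.00727) and the fibronectin-binding chain gene Itga5 (log2 fold change 0.69 ± 0.16, adjusted p = 0.00569) rose. The list had 7 rises without Tim-4high library 3 and 8 with the block. Of 39 matrix and protease genes 7 were higher (17.9%) and 6 lower (15.4%), shares near those over all genes, and with the block 13 and 12. Mmp14 (ENSMUSG00000000957, chromosome 14, 54431612 to 54445364), a membrane-bound collagenase, was at 71.3, 75.9 and 75.8 CPM against 11.6, 18.6 and 15.7 CPM (log2 fold change 2.28 ± 0.28, adjusted p = 8.56e-05). Tgfbi (ENSMUSG00000035493, chromosome 13, 56609523 to 56639562), a secreted adhesion protein induced by TGF-beta, was at 807, 1063 and 869 CPM against 206, 319 and 305 CPM (log2 fold change 1.72 ± 0.20, adjusted p = 6.84e-05). The proteoglycan genes Sdc4 (1.59 ± 0.26), Sdc1 (1.92 ± 0.35) and Vcan (1.54 ± 0.36) rose with them, while Emilin1 (-1.42 ± 0.25), Ecm1 (-1.09 ± 0.15) and the protease inhibitor gene Timp2 (-0.85 ± 0.09) fell. Sdc1 also marks plasma cells, whose gene Jchain was between 0 and 0.115 CPM in the 6 libraries. S100, annexin and galectin genes had 10 of 25 members higher and 4 lower, and 6 higher without Tim-4high library 1. S100a4 (ENSMUSG00000001020, chromosome 3, 90603771 to 90606045) stood at 211, 236 and 230.2 CPM against 53.8, 72.8 and 68.7 CPM (log2 fold change 1.79 ± 0.18, adjusted p = 4.5e-05). S100a6 was at 209, 228 and 236 CPM against 64.9, 90.6 and 88.4 CPM (log2 fold change 1.47 ± 0.21, adjusted p = 0.000243). Lgals1, galectin 1, was at 217, 262 and 234 CPM against 56.5, 114 and 85.7 CPM (log2 fold change 1.47 ± 0.24, adjusted p = 0.00058). Lgals3bp fell (log2 fold change -1.05 ± 0.16, adjusted p = 0.000381).

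Among cytokine receptor genes rises outnumbered falls in Tim-4low cells, and among ligand genes falls outnumbered rises. Of 42 receptor genes 13 rose and 4 fell, and of 38 cytokine and growth factor genes 3 rose and 9 fell. Acvrl1, a type I receptor for BMP9 and BMP10, stood at 64.3, 77.2 and 58.9 CPM in Tim-4low cells, against 12, 25 and 17.6 CPM in Tim-4high cells (log2 fold change 1.87 ± 0.28, adjusted p = 0.000261). Met, the receptor for hepatocyte growth factor, was at 10.4, 17.3 and 11.1 CPM against 2.99, 4.31 and 3.93 CPM (log2 fold change 1.79 ± 0.30, adjusted p = 0.000675). Tnfrsf13b, a receptor for BAFF and APRIL, was at 29.9, 30.8 and 29.2 CPM against 8.63, 9.64 and 11.2 CPM (log2 fold change 1.60 ± 0.21, adjusted p = 0.00014). Il21r (1.0 ± 0.20), the interferon-gamma receptor gene Ifngr1 (0.82 ± 0.14) and Il17ra (0.69 ± 0.09) rose too. Tgfbr2, the type II receptor for TGF-beta, fell, at 195, 173 and 201 CPM against 358, 332 and 341 CPM (log2 fold change -0.86 ± 0.09, adjusted p = 4.59e-05), as did the shared beta chain genes Csf2rb (-0.68 ± 0.11) and Csf2rb2 (-0.38 ± 0.07), which are close copies. Among ligands, Tgfb2 stood at 9.32, 3.97 and 18.4 CPM against 53.9, 38.1 and 53 CPM (log2 fold change -2.19 ± 0.55, adjusted p = 0.00926), with a log2 fold change of -2.86 without Tim-4low library 3. Il1a (-1.18 ± 0.27) and Tnfsf13, the gene of APRIL (-0.70 ± 0.09), fell, and Tnfsf12 rose (0.54 ± 0.12). Ligand and receptor of the APRIL pair therefore lay higher in different populations. With the block 10 ligands were called higher and 14 lower, and 7 receptors lower, and without Tim-4high library 1 or Tim-4low library 1 or 2 only 1 ligand was called higher.

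Retinoid genes, whose ligand retinoic acid sustains Gata6 in these cells, had 7 of 19 tested members lower and none higher, with a median of -0.08. The retinoid X receptor genes Rxra (log2 fold change -0.29 ± 0.09, adjusted p = 0.0231), Rxrb (log2 fold change -0.29 ± 0.09, adjusted p = 0.0296) and Rxrg (log2 fold change -2.48 ± 0.58, adjusted p = 0.00568), the partners of Rarb, were called lower. Rdh10, the dehydrogenase gene that makes retinaldehyde, was at 5.68, 6.52 and 7.42 CPM in Tim-4low cells, against 8.56, 8.04 and 9.28 CPM in Tim-4high cells (log2 fold change -0.40 ± 0.12, adjusted p = 0.0253). Cyp26b1, which degrades retinoic acid, was at 1.14, 0.914 and 1.76 CPM against 5.79, 5.29 and 4.7 CPM (log2 fold change -2.05 ± 0.51, adjusted p = 0.00873). Falls among retinoid genes numbered 4 without Tim-4high library 1 or both libraries 3 and 3 without Tim-4low library 1. Over the omissions of 1 library the adjusted p of Rxra ran from 0.0308 to 0.103, that of Rxrb from 0.0253 to 0.13 and that of Rdh10 from 0.014 to 0.119, while Rxrg and Cyp26b1 were called in each. Purinergic genes went both ways, with 4 of 20 higher (20.0%) and 6 lower (30.0%), against 11.3% and 12.9% of all genes. The receptor genes P2ry13 (log2 fold change 0.89 ± 0.28, adjusted p = 0.0327) and P2ry12 (log2 fold change 0.53 ± 0.15, adjusted p = 0.0166) rose beside P2ry6, and the ATP-gated channel genes P2rx1 (log2 fold change -1.96 ± 0.44, adjusted p = 0.00465) and P2rx4 (log2 fold change -0.24 ± 0.07, adjusted p = 0.0179) fell. Only 1 purinergic gene rose without Tim-4high library 1 or 3 or Tim-4low library 2, and 2 did without Tim-4low library 1. The adjusted p over these omissions ran from 0.0265 to 0.156 for P2ry13, from 0.00464 to 0.0971 for P2ry12 and from 0.0352 to 0.0891 for P2rx4. Of 25 genes known from tumor-associated macrophages 3 rose and 8 fell, with a median of -0.13. Spp1, the osteopontin gene, was at 196, 224 and 271 CPM against 674, 836 and 674 CPM (log2 fold change -1.66 ± 0.50, adjusted p = 0.0239). The protease gene Ctsl fell with it (log2 fold change -0.55 ± 0.09, adjusted p = 0.000444), while the galectin gene Lgals3 rose (log2 fold change 0.48 ± 0.11, adjusted p = 0.00403). The adjusted p of Spp1 ran from 0.0423 to 0.0865 over the omissions of 1 library. Tumor-associated genes had 5 falls without Tim-4low library 1 or 2, and 8 rises with the block.

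Among 29 Toll-like receptor and adaptor genes 7 rose (24.1%) and 4 fell (13.8%), against 11.3% and 12.9% of all genes. The share of falls was near that over all genes, and 11 members rose with the block. Tlr5, the flagellin receptor gene, stood at 4.66, 5.13 and 4.76 CPM in Tim-4low cells, against 0.576, 0.616 and 1.16 CPM in Tim-4high cells (log2 fold change 2.63 ± 0.39, adjusted p = 0.000301). Tlr9, the receptor gene for unmethylated CpG DNA, was at 17.4, 15.7 and 14.3 CPM against 2.03, 2.28 and 5.08 CPM (log2 fold change 2.33 ± 0.44, adjusted p = 0.00136), and without both libraries 3 its log2 fold change was 2.93. Tlr1 (1.30 ± 0.22), Ly86 (0.92 ± 0.12) and the adaptor gene Myd88 (0.74 ± 0.13) rose, while the RNA sensor genes Tlr7 (-0.53 ± 0.13) and Tlr3 (-0.52 ± 0.10) and the endotoxin carrier gene Lbp (-1.62 ± 0.20) fell. Among 23 inflammasome genes 4 rose (17.4%) and 5 fell (21.7%). Mefv, which encodes pyrin, was at 17, 18.5 and 18.8 CPM against 3.3, 3.77 and 7.66 CPM (log2 fold change 1.88 ± 0.46, adjusted p = 0.00781). Nlrp1b rose too (log2 fold change 1.39 ± 0.35, adjusted p = 0.00869). Naip1, Naip2 (-0.40 ± 0.09) and Naip5 (-0.67 ± 0.14), cytosolic sensors of flagellin and secretion systems with near-identical copies, fell. Without Tim-4low library 2 the inflammasome list had 2 rises, and with the block 7. Fcgr1, the high-affinity IgG receptor gene, was at 337, 405 and 375 CPM against 132, 162 and 142 CPM (log2 fold change 1.36 ± 0.29, adjusted p = 0.0037), while the low-affinity receptor gene Fcgr3 fell (log2 fold change -0.38 ± 0.08, adjusted p = 0.00292).

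Genes that act on T cells gave no common direction. Of 26 tested ligands and enzymes 7 rose and 4 fell, but only 5 of the 11 calls held in every omission, and the number of rises was 3 without both libraries 3, 3 without Tim-4low library 1 or 2 or Tim-4high library 3, 4 without Tim-4high library 2 and 2 without Tim-4high library 1. Cd274 (ENSMUSG00000016496, chromosome 19, 29367455 to 29388095), the gene of PD-L1, stood at 376, 380.5 and 344 CPM in Tim-4low cells, against 419, 413 and 373 CPM in Tim-4high cells, with overlapping groups (log2 fold change -0.13 ± 0.61, adjusted p = 0.91). It was lower in Tim-4low cells in each of the 3 pairs of library numbers, and with the block it was not called (adjusted p = 0.656, and 0.0667 in the 6 isotype libraries alone). Arg1 (ENSMUSG00000019987, chromosome 10, 24915221 to 24927484), the gene of arginase 1, was at 7414, 8428 and 7585 CPM against 8258, 8864 and 8586 CPM, also overlapping (log2 fold change -0.13 ± 0.35, adjusted p = 0.83). It too was lower in Tim-4low cells in each pair, and with the block it was not called (adjusted p = 0.722, and 0.0977 in the 6 isotype libraries alone). Entpd1, the gene of CD39, which makes the AMP that CD73 turns into adenosine, was at 239, 261 and 248 CPM against 243, 253 and 251 CPM (log2 fold change 0.00 ± 0.11, adjusted p = 0.995). So of the enzyme pair that makes adenosine the second, Nt5e, fell, and the first was not called. Cd40 rose, at 37.3, 37 and 33.2 CPM against 18, 23.6 and 20.4 CPM (log2 fold change 0.79 ± 0.15, adjusted p = 0.0014). Pdcd1lg2, the gene of PD-L2, was at 18.3, 19.8 and 11.3 CPM against 3.65, 6.56 and 4.85 CPM (log2 fold change 1.71 ± 0.52, adjusted p = 0.0247) and lost its call without Tim-4low library 1 (adjusted p = 0.0682) or 2 (0.083) or Tim-4high library 1 (0.103) or 3 (0.0677). H2-D1, a classical class I gene with close copies, fell (log2 fold change -0.59 ± 0.11, adjusted p = 0.00137), among 20 class I presentation genes of which 3 fell and none rose, while 1 fell without Tim-4low library 2, Tim-4high library 3 or both libraries 3 and 4 rose and 9 fell with the block. Of 14 class II genes 1 rose (7.14%, under the 11.3% over all genes) and none fell, with a median of 0.25. H2-Aa was at 3136, 3021 and 3243 CPM against 2489, 2491 and 3030 CPM (log2 fold change 0.23 ± 0.44, adjusted p = 0.764), called higher in the 6 isotype libraries alone with the block (adjusted p = 0.0191). The class II call was that of Ctss, which was lost in every omission of 1 library. H2-DMb2 was called higher without Tim-4high library 3 and H2-Oa lower without Tim-4low library 3, and with the block 2 class II genes were called higher and 1, H2-Oa, lower. Of 41 interferon response genes 4 rose (9.76%) and none fell, both under the 11.3% and 12.9% over all genes. The rises were Slfn1 (log2 fold change 1.01 ± 0.22, adjusted p = 0.00426), Ifi27l2a (log2 fold change 0.63 ± 0.11, adjusted p = 0.000977), Ifi204 (log2 fold change 0.76 ± 0.20, adjusted p = 0.0105) and Ifi211 (log2 fold change 0.92 ± 0.29, adjusted p = 0.0279). Ifi211 was called only without Tim-4low library 1 among the omissions of 1 library, Ifi204 was not called without both libraries 3 (adjusted p = 0.077), and with the block 18 interferon response genes were called higher and 6 lower.

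Energy and amino acid metabolism showed opposite moves within pathways. Of 35 glycolysis and hypoxia genes 10 rose and 7 fell. The enzymes that set fructose-2,6-bisphosphate, Pfkfb4 (log2 fold change 1.13 ± 0.11, adjusted p = 4.59e-05) and Pfkfb3 (log2 fold change 0.77 ± 0.18, adjusted p = 0.00573), rose. So did phosphofructokinase, Pfkp, at 251, 264 and 242 CPM in Tim-4low cells, against 124, 138 and 145 CPM in Tim-4high cells (log2 fold change 0.89 ± 0.15, adjusted p = 0.000759). Aldolase A, Aldoa, fell, at 1907, 2119 and 2223 CPM against 2803, 2837 and 3039 CPM (log2 fold change -0.47 ± 0.11, adjusted p = 0.00679). The mitophagy receptor genes Bnip3 (0.64 ± 0.15) and Bnip3l (-0.65 ± 0.06), which are paralogs, moved apart. Falls numbered 3 without Tim-4low library 1 and 4 without Tim-4low library 2 or Tim-4high library 1 or 2 or without both libraries 3. In arginine and amino acid metabolism 8 of 32 genes rose and 3 fell. Slc7a2, the arginine transporter of activated macrophages, was at 994, 1148 and 1096 CPM against 2528, 2694 and 2516 CPM (log2 fold change -1.26 ± 0.18, adjusted p = 0.00021), so it fell while Arg1 was not called. Glutamine synthetase, Glul, fell (log2 fold change -1.06 ± 0.15, adjusted p = 0.000221), and the serine enzyme gene Psat1 (0.97 ± 0.18) and the transporter genes Slc1a5 (0.70 ± 0.12) and Slc3a2 (0.51 ± 0.09) rose. The list had 5 rises without Tim-4high library 1 or 3 or Tim-4low library 2. Iron genes fell in 6 of 23 cases (26.1%) and rose in 1 (4.35%), against 12.9% and 11.3% of all genes. The ferroxidase gene ceruloplasmin, Cp, was at 25.2, 13.6 and 32.1 CPM against 96, 69.3 and 80.1 CPM (log2 fold change -1.79 ± 0.33, adjusted p = 0.0012). The haem exporter gene Flvcr1 was the rise (log2 fold change 1.12 ± 0.14, adjusted p = 0.000105). Of 25 antioxidant genes 7 fell (28.0%) and 2 rose (8.0%). The peroxidase genes Gpx4 (-0.65 ± 0.10) and Prdx4 (-0.98 ± 0.22) fell and Prdx6 rose (0.56 ± 0.12). The antioxidant list had 4 falls without Tim-4high library 3, Tim-4low library 1 or both libraries 3, and 1 rise without Tim-4high library 1, Tim-4low library 2 or both libraries 3, and 5 rises with the block. D-type cyclins moved apart, with Ccnd1 at 228, 235 and 265 CPM against 497, 598 and 491 CPM (log2 fold change -1.12 ± 0.28, adjusted p = 0.00933). Ccnd2 was at 105, 96.7 and 112 CPM against 30.8, 40.1 and 58.5 CPM (log2 fold change 1.28 ± 0.30, adjusted p = 0.00566). Beyond them, 45 genes of DNA replication and mitosis had a median of -0.16, with 4 falls and 1 rise, and 2 falls without Tim-4high library 1. The shares of 8.89% lower and 2.22% higher were under the 12.9% and 11.3% over all genes. Mki67 was not called (log2 fold change -0.38 ± 0.31, adjusted p = 0.415), though it was in the 6 isotype libraries alone with the block (adjusted p = 0.000700). No transcript of the mitochondrial genome was called by edgeR among 13 tested, with 0 at an unadjusted p under 0.05 and 0 by DESeq2.

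Markers of other cells gave few calls in the fit of all libraries without the block. Among the T cell, NK cell and neutrophil markers edgeR called 0 of 15, 0 of 10 and 0 of 12, with 0, 1 and 0 at an unadjusted p under 0.05 and 0 by DESeq2 in each. Among NK cell markers 1 was called higher with the block, 1 without both libraries 3 and 2 without Tim-4high library 3, and 1 neutrophil marker was called lower with the block. Bank1 was the B cell marker called (log2 fold change -1.26 ± 0.33, adjusted p = 0.0124) and Ear6 the eosinophil marker called (log2 fold change -2.43 ± 0.67, adjusted p = 0.018), with adjusted p from 0.00752 to 0.0658 and from 0.0253 to 0.0678 over the omissions of 1 library. Summed dendritic cell markers were at 323, 269 and 534 CPM in Tim-4low cells, against 831, 745 and 987 CPM in Tim-4high cells, most of it Cd24a, which other cells also express, at 271, 224 and 397 CPM and 803, 719 and 845 CPM (log2 fold change -1.41 ± 0.48, adjusted p = 0.0442). Cd24a lost its call without any 1 library other than Tim-4low library 3, and Zbtb46, specific to dendritic cells, was between 2.08 and 6.55 CPM and was called lower with the block (adjusted p = 0.0363). Mast cell markers summed to 34.9, 27.7 and 85 CPM in Tim-4low cells, against 148, 131 and 161 CPM in Tim-4high cells. Nearly all of this was Hdc, histidine decarboxylase, at 33.5, 26.3 and 75.4 CPM and 146, 129 and 149 CPM (log2 fold change -1.65 ± 0.50, adjusted p = 0.0262), while the mast cell protease gene Cpa3 was between 0.0945 and 1 CPM. The Hdc call was lost without Tim-4low library 1 (adjusted p = 0.1) or 2 (0.114) or Tim-4high library 1 (0.064) or 3 (0.0582), and without Tim-4low library 3 its log2 fold change was -2.24. Of 15 monocyte markers 4 rose, Ccr2, Cx3cr1, Ly6c2 and Vcan, and 1 fell, Thbs1, and among those not called Plac8 was at 300.0, 341 and 359 CPM against 154, 96.7 and 176 CPM (log2 fold change 1.23 ± 0.64, adjusted p = 0.19), and was called with the block (adjusted p = 0.00283). Without Tim-4high library 1 or 2 there were 2 rises among monocyte markers, and with the block 7 rises and 3 falls. Carcinoma epithelium markers summed to 16.5, 24.9 and 19.5 CPM in Tim-4low cells, against 7.79, 10.8 and 15.3 CPM in Tim-4high cells, with Epcam between 0.0384 and 0.462 CPM and Krt8 between 0.181 and 1.22 CPM, the latter called higher with the block (adjusted p = 0.0484). Mesothelium and fibroblast markers summed to 31.1, 53.7 and 86.2 CPM, against 17.8, 33.3 and 52.6 CPM. Red cell and platelet markers summed to 88.2, 29.1 and 22.3 CPM, against 37.1, 18.4 and 13.8 CPM. EdgeR called none of the 5, 11 and 6 tested markers of these 3 lists. At an unadjusted p under 0.05 there were 2, 2 and 1, and by DESeq2 1, 0 and 0. Their median log2 fold changes were 1.02, 0.91 and 1.00, towards Tim-4low cells. With the block 3, 6 and 5 of them were called higher and none lower, against 2773 of all 16609 genes called higher. Without Tim-4high library 3 the markers called higher numbered 2, 7 and 0. The part of other cells in the population differences was not tested.

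The population difference in isotype-treated tumor mice was compared with that in mice without a tumor through the ratio of Tim-4low to Tim-4high, in 2 comparisons that share no library. The mice without a tumor were untreated, so tumor and isotype antibody cannot be told apart. Values named below as with a tumor belong to tumor and isotype together. The ratio was higher with isotype and tumor for 220 genes (1.32% of those tested) and lower for 367 (2.21%), and the median difference of log2 ratios over all genes was -0.02. Irf8 (ENSMUSG00000041515, chromosome 8, 120736358 to 120756694), a factor of monocyte and dendritic lineages, had a log2 fold change of -0.72 ± 0.24 without a tumor and of 1.07 ± 0.24 with it, a difference of 1.79 ± 0.34 (adjusted p = 0.00791). Stab1 (ENSMUSG00000042286, chromosome 14, 31139013 to 31168641), a scavenger receptor gene, stood at 59.1 ± 28.6 CPM (mean ± SD, n = 3) in Tim-4low cells, against 275 ± 53.7 CPM in Tim-4high cells, without a tumor and at 499 ± 102 and 323 ± 177 CPM with it, a difference of 2.85 ± 0.52 (adjusted p = 0.0071). With isotype and tumor the populations' difference in Stab1 was not called (adjusted p = 0.237), and with the block it was called higher in Tim-4low cells (adjusted p = 0.0483). Tgfbi had a ratio near even without a tumor (0.00 ± 0.20) and was higher in Tim-4low cells with it (difference 1.72 ± 0.28, adjusted p = 0.00346). The complement receptor gene C3ar1 (-0.55 ± 0.14 against 0.72 ± 0.14), the lectin-like receptor gene Clec5a (-0.86 ± 0.21 against 0.91 ± 0.20), Cxcl16 (-0.72 ± 0.14 against 0.56 ± 0.13) and Prdx6 (-0.48 ± 0.12 against 0.56 ± 0.12) changed sign between the conditions, with differences of 1.27 ± 0.20, 1.78 ± 0.29, 1.28 ± 0.19 and 1.04 ± 0.17. The protease gene Lgmn (-1.23 ± 0.11 against -0.10 ± 0.11), the RNA sensor gene Tlr13 (-1.60 ± 0.13 against -0.15 ± 0.12) and the scavenger receptor gene Msr1 (-0.95 ± 0.11 against -0.06 ± 0.10) were lower in Tim-4low cells without a tumor and near even with it.

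Lower ratios were found for several genes that were higher in Tim-4low cells without a tumor. Mgl2 (ENSMUSG00000040950, chromosome 11, 70130329 to 70137550) had a log2 fold change of 4.25 ± 0.53 without a tumor and -0.03 ± 0.46 with it, and stood at 129 ± 63.5 against 6.76 ± 4.21 CPM and at 37.8 ± 3.11 against 38.4 ± 9.74 CPM (difference -4.28 ± 0.69, adjusted p = 0.00316). Without no-tumor Tim-4high library 1 that difference was -4.91. Cd226 kept a rise in both conditions, at 4.92 ± 0.31 and 2.15 ± 0.28, with a difference of -2.77 ± 0.40, and Sdc1 did so at 5.0 ± 0.41 and 1.92 ± 0.35, with -3.08 ± 0.52. Synpo (4.36 ± 0.31 against 0.40 ± 0.25), the retinaldehyde dehydrogenase gene Aldh1a2 (2.10 ± 0.16 against 0.25 ± 0.16) and Axl (1.84 ± 0.14 against 0.32 ± 0.14) were higher in Tim-4low cells without a tumor and were not called with it. In these genes the difference between populations was smaller in isotype-treated tumor mice. Gm2a, the lysosomal activator of ganglioside breakdown, reversed, from 937 ± 185 against 271 ± 51.7 CPM (1.79 ± 0.16) to 1075 ± 127 against 1750 ± 179 CPM (-0.70 ± 0.15), a difference of -2.49 ± 0.22 (adjusted p = 6.38e-05). The cell adhesion gene Alcam reversed likewise (0.75 ± 0.16 against -0.73 ± 0.16, difference -1.48 ± 0.23). Of 20 small or recruited macrophage genes 7 had a lower ratio and 1 a higher one (median -0.75), of 14 class II genes 6 had a lower one (median -1.82), and of 28 resident genes 1, Hgf, had a higher one (3.39 ± 0.64, and 4.15 without no-tumor Tim-4low library 1). The 587 calls numbered 363 and 321 without isotype Tim-4low library 1 and 2, 387 and 337 without isotype Tim-4high library 1 and 3, 889 and 367 without no-tumor Tim-4high library 1 and 3, 329 without no-tumor Tim-4low library 3, 264 without both isotype libraries 3 and 1858 with the block. The genes named with a difference here were called in every omission of 1 library.

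**Figure D5:**
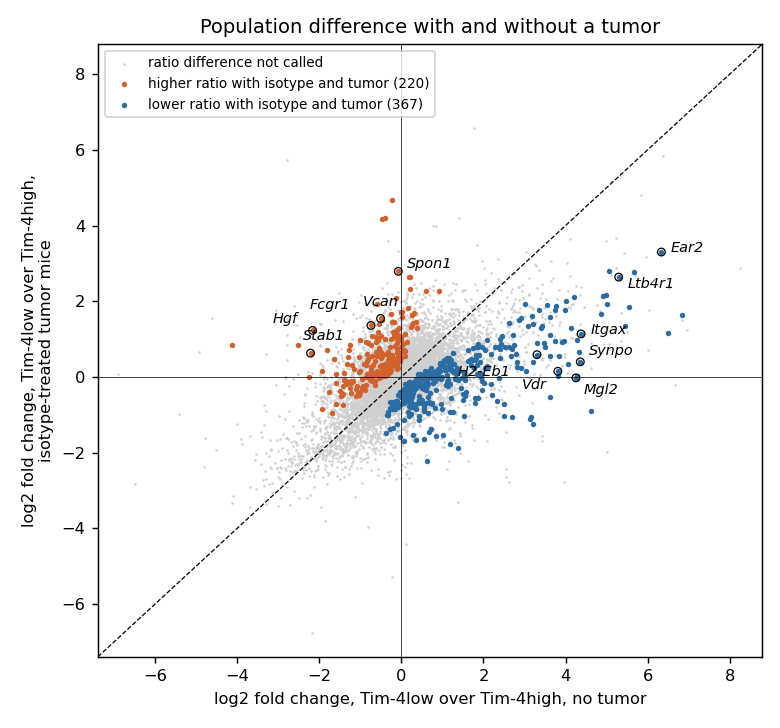
Log2 fold change of Tim-4low over Tim-4high without a tumor (horizontal) and in isotype-treated tumor mice (vertical) for 16609 genes, with equal values on the dashed line. Genes with a higher ratio in isotype-treated tumor mice (220) are orange and those with a lower one (367) blue, with Stab1 at 0.63 and Mgl2 at -0.03 on the vertical axis.

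Against tumor-bearing mice given anti-Tim-4 the ratio was higher with isotype for 210 genes (1.26%) and lower for 277 (1.67%), and this comparison shares the isotype libraries with the one above. Mmp14 had a log2 fold change of 2.28 ± 0.28 with isotype and 0.15 ± 0.26 with anti-Tim-4, a difference of 2.13 ± 0.38 (adjusted p = 0.0208). S100a4 (1.79 ± 0.18 against 0.15 ± 0.17, difference 1.64 ± 0.25, adjusted p = 0.0192) and Anxa5 (1.73 ± 0.28 against 0.05 ± 0.27, difference 1.68 ± 0.39, adjusted p = 0.0375) had higher ratios with isotype. Lower ratios were found for Sort1 (-1.48 ± 0.18 against -0.01 ± 0.18, difference -1.46 ± 0.25, adjusted p = 0.0207), Gaa (-1.28 ± 0.14 against -0.26 ± 0.14, difference -1.02 ± 0.20, adjusted p = 0.0242) and Acly (-1.16 ± 0.16 against -0.07 ± 0.16, difference -1.09 ± 0.23, adjusted p = 0.0293). For these 6 genes the populations lay further apart with isotype than with anti-Tim-4. Each of the 6 lost its call without isotype Tim-4high library 1 or Tim-4low library 2 or without anti-Tim-4 Tim-4high library 2 or 3, with adjusted p over the 12 omissions from 0.00876 to 0.077 for Mmp14, 0.00334 to 0.0715 for S100a4, 0.0112 to 0.119 for Anxa5, 0.00504 to 0.0758 for Sort1, 0.00331 to 0.0849 for Gaa and 0.00447 to 0.0987 for Acly. Of 52 lysosomal genes 8 had a lower and 2 a higher ratio. The 487 calls depended on single libraries, with 1 left without isotype Tim-4high library 1, without isotype Tim-4low library 2 or without anti-Tim-4 Tim-4high library 3, between 3 and 111 without 5 other single libraries, 735 and 1418 without isotype or anti-Tim-4 Tim-4low library 3, and 2609 with the block.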

How the data were processed

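Peritoneal macrophages were sorted by Tim-4, RNA was taken up in Trizol, and bulk libraries were sequenced with 3 per population and condition, per the labels' protocols. The authors deposited estimated counts per gene, not normalized, for 23511 genes in all 18 libraries. STAR, DESeq2 and the mm10 build are named in the submitters' processing notes, without versions or roles. Which program did the counting, with which annotation and whether by strand, is not given in the sources used here, so antisense, overlapping and near-identical genes are uncertain. Between 62.8% and 66.8% of the counts in a library were whole to within 0.001, and no gene had a total under 10.

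The estimated counts were rounded to whole numbers. After edgeR's default filter on low counts 16609 genes were tested and 6902, with at most 0.0878% of a library's counts, were left out. TMM factors and the quasi-likelihood test of edgeR 4.0.16 (R 4.3.3) were applied to all 18 libraries with 6 groups, which share 1 estimate of the spread with 12 residual degrees of freedom (common dispersion 0.0323). The script was tested on simulated data. Calls were made at an adjusted p under 0.05.

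Named genes were Timd4, the 15 called genes that rose most and the 15 that fell most where the higher population averaged 10 CPM or more and no libraries overlapped (predicted models, pseudogenes and antigen receptor segments left out), called list members, the members nearest to a call, a set of key genes, and the largest differences between conditions. A few further genes, the markers Flt3, Zbtb46, Jchain, Cpa3, Epcam, Krt8 and Plac8 and the class II genes H2-DMb2 and H2-Oa among them, were chosen after their values were seen. The gene lists, the members and the tests were chosen with earlier results of these data known. Libraries with the same number tended to deviate together in the 2 populations, with correlations of 0.2167, 0.3079 and 0.4772 in the isotype mice. Over all conditions these ran from 0.155 to 0.4885, against -0.4323 to 0.2088 for other numbers. The ranges overlap, and isotype Tim-4low library 1 correlated about as well with Tim-4high library 2 (0.2088) as with Tim-4high library 1 (0.2167). The values do not settle whether libraries 1 and 2 are pairs. A fit with library number as a block was run as an alternative. Other alternatives were RLE factors, no filter, DESeq2 1.42.0, robust estimation, the compared groups alone and the omission of each library. The omission of both isotype libraries 3 was added after the data were seen. Tables of other comparisons and counts per transcript were not used here, and a few genes are not reported here.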

Additional observations from a re-analysis of the deposited data

Results flagged for a closer look

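The ratio of Tim-4low to Tim-4high differed between isotype-treated tumor mice and mice without a tumor, by edgeR's test of the difference itself, for 220 genes in the higher and 367 in the lower direction. Among genes with a mean of at least 10 CPM in the highest group, the largest differences towards a higher log2 ratio with isotype and tumor were those of Hgf (3.394), Spon1 (2.866), Stab1 (2.845), Cped1 (2.234), Arhgef37 (2.113), Abcc3 (2.11), Fcgr1 (2.102) and Vcan (2.053). Those towards a lower ratio were Mgl2 (-4.281), Cd209c (-4.246), Ndnf (-4.113), Synpo (-3.962), Ramp1 (-3.718), Vdr (-3.665), Pianp (-3.314) and Itgax (-3.245). Of the 12 omissions of 1 library, Arhgef37 lost its call in 10, Vcan in 9, Pianp in 8, Itgax in 7, Cd209c in 6 and Ramp1 in 1, and the others named here in none. Without isotype Tim-4high library 3 the differences were -2.88 for Cd209c (adjusted p = 0.314), -2.45 for Pianp (0.296), -2.20 for Itgax (0.132), -2.91 for Ramp1 (0.0598), -3.52 for Ndnf and 3.71 for Spon1. Without both isotype libraries 3 they were -3.18, -2.16, -2.58, -2.91, -3.46 and 3.75, and the first 5 were not called. Without no-tumor Tim-4high library 1 they were -4.31 for Itgax, -4.91 for Mgl2, -4.99 for Ndnf, -4.44 for Ramp1, -4.29 for Vdr and 1.45 for Vcan. Without no-tumor Tim-4low library 1 they were 4.15 for Hgf and 2.70 for Vcan, and without no-tumor Tim-4low library 3 that of Cd209c was -3.58. Fcgr1, Arhgef37 and Vcan were also not called without both isotype libraries 3 (adjusted p = 0.0588, 0.138 and 0.130).

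The same test between isotype and anti-Tim-4 in tumor-bearing mice found 210 genes with a higher and 277 with a lower ratio under isotype. Large differences towards a higher ratio were those of Ccl8 (2.39), B3gnt7 (2.338), Stab1 (2.232), Stxbp6 (2.159), Mmp14 (2.132), Ggta1 (2.085) and Chst1 (1.994). Those towards a lower ratio were Col18a1 (-3.088), Hhipl1 (-2.963), Unc5b (-2.64), Strip2 (-2.587), Gfod1 (-2.44), Sorcs2 (-2.418), Bcam (-2.389) and Ppm1e (-2.29). Each of these genes lost its call in 5 or more of the 12 omissions of 1 library, and Ppm1e in 10. Without isotype Tim-4high library 2 the differences were 3.02 for Ccl8 and 2.58 for Chst1, and that of Col18a1 was -2.37 without anti-Tim-4 Tim-4low library 1 and -3.73 without anti-Tim-4 Tim-4high library 1. Both tests share the isotype libraries. The count against anti-Tim-4 was 1 without isotype Tim-4high library 1, isotype Tim-4low library 2 or anti-Tim-4 Tim-4high library 3. The causes of these differences were not tested.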

How the results depend on the processing

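The 4011 genes called between the isotype populations numbered from 3493 to 5716 under the alternatives other than omissions, from 2625 to 3485 when 1 library was left out, and 2833 without both isotype libraries 3, with more genes lower than higher each time. With library number as a replicate block 5658 genes were called, and 3965 of the 4011 calls were among them. Of 427 called genes open to naming, the block ended the call of 0, DESeq2 of 2, and the omission of 1 library of 52 to 116, while 291 were called in every omission. Among genes named for the isotype comparison, the block changed no call other than those of the 9 genes given with it in the report. Against no tumor the 587 calls numbered 1038 by DESeq2, 1858 with the replicate block, 264 without both isotype libraries 3 and from 321 to 889 with 1 library left out. Against anti-Tim-4 the 487 calls numbered 1282 by DESeq2, 2609 with the replicate block, 976 in a fit of the compared groups alone, 9 without both isotype libraries 3 and from 1 to 1418 with 1 library left out. Uncalled genes that changed sign when 1 library was left out were Entpd1 (log2 fold change from -0.03001 to 0.03228), Folr2 (from -0.08781 to 0.6425) and Irf4 (from -0.07449 to 0.2929). The cause of these shifts was not tested. Fewer libraries leave fewer degrees of freedom, and genes near the count filter were measured with the largest counting error.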
